A study of Homo sapiens with 2 samples.

Results

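The genes of the proteasome were examined in undifferentiated H9 cells, a human embryonic stem cell line. Members were the protein-coding genes on the autosomes whose RefSeq symbol begins with PSMA, PSMB, PSMC, PSMD, PSME, PSMF or PSMG and a digit, with PSMC3IP left out. This gave 48 of 19126 genes. Of these, 42 encode subunits, activators, chaperones or the inhibitor that most cells share, 5 encode tissue-specific forms (PSMB8, PSMB9, PSMB10, PSMB11 and PSMA8), and PSME3IP1 encodes a partner of an activator and no subunit. The study used ATAC-Me, in which a transposase cuts open chromatin and the DNA is then converted so that each fragment also reports the methylation of its CpGs. The cells were not treated and carry no engineered allele that the labels name, and they were grown on Matrigel in mTeSR medium. They form 1 group with 2 replicates and no second condition. The labels do not name separate cultures for the replicates, whose spread may thus be only technical, and H9 is a single line.

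The proteasome degrades proteins tagged with ubiquitin. Its core particle is a barrel of outer alpha rings, which gate the entrance, and inner beta rings, which hold the active sites of PSMB5, PSMB6 and PSMB7. A regulatory particle, whose base holds the PSMC ATPases and whose lid holds several of the PSMD subunits, recognises, unfolds and feeds in the substrate. PSME proteins are alternative caps and PSMG proteins help to assemble the core. Interferon induces PSMB8, PSMB9 and PSMB10, which take the places of PSMB5, PSMB6 and PSMB7 and change the peptides made for antigen presentation. PSMB11 takes the place of PSMB5 in the cortical epithelium of the thymus, and PSMA8 that of PSMA7 in the testis.

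RefSeq promoter sequences (GRCh38.p14) were matched by symbol for 42 of the 48 members, and those of PSMA7, PSMB1, PSMB6, PSMB7, PSMD4 and PSMG3 were not among them. The 250 bases before the start are printed for the 5 tissue-specific forms, on which the contrasts turn, for PSMB5 as the common counterpart of PSMB8 and PSMB11, and for PSMB4, which was chosen after its values were seen, as a common gene without an open chromatin peak. All run 5′ to 3′ on the strand of the gene and end at the base before the start, and capitals mark CpGs, the positions that can carry methylation. They lie at chr14:23035221-23035470 on the reverse strand (PSMB5), chr6:32844680-32844929 on the reverse strand (PSMB8), chr6:32853942-32854191 on the forward strand (PSMB9), chr16:67936851-67937100 on the reverse strand (PSMB10), chr14:23041962-23042211 on the forward strand (PSMB11), chr18:26133619-26133868 on the forward strand (PSMA8) and chr1:151399323-151399572 on the forward strand (PSMB4). Each is upstream of its own gene's first listed transcript.
PSMB5: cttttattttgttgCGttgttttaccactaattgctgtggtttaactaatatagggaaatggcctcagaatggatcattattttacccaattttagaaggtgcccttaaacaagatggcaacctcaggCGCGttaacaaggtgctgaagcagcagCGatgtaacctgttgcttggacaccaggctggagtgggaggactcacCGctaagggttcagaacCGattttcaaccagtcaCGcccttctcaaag
PSMB8: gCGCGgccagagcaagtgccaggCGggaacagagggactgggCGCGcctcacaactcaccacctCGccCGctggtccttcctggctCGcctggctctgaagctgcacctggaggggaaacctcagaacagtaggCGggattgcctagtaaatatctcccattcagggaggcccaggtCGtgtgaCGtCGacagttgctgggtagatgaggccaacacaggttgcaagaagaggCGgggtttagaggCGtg
PSMB9: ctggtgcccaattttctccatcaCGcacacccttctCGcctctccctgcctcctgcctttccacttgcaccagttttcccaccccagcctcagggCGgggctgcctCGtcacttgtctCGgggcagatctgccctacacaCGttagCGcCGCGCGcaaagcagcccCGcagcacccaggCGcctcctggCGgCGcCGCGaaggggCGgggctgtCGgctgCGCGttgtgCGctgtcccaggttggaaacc
PSMB10: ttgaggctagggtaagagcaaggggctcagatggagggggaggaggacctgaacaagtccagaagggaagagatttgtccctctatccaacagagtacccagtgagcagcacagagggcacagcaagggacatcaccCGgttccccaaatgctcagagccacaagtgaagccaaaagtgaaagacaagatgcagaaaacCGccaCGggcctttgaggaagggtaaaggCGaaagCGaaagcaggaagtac
PSMB11: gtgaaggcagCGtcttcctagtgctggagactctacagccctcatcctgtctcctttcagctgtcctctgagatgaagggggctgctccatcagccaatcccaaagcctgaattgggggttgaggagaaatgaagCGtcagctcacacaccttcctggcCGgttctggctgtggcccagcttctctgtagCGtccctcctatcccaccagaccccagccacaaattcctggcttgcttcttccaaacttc
PSMA8: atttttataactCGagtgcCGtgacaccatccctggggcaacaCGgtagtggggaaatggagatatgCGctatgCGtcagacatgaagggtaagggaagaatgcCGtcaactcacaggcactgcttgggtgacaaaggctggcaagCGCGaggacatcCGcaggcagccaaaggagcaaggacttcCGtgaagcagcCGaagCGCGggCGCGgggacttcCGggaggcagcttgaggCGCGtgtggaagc
PSMB4: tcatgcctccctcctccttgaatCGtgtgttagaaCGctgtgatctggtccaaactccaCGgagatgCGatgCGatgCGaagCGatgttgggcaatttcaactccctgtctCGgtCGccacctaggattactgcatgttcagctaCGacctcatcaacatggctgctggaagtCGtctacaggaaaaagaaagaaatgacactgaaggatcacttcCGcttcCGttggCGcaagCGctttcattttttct

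The number of CpGs differed widely between these stretches. PSMB9 held 21, PSMA8 18, PSMB4 15 and PSMB8 14. PSMB5 held 7, PSMB10 5 and PSMB11 4. In the whole promoter window, 250 bases before to 50 after the start, the 42 matched members had a median of 22 CpGs (range 4 to 39) and 62.2% G or C. All 15101 promoters of the table had a median of 22 CpGs and 63.0% G or C. PSMB11 and PSMF1, each with 4 CpGs, were the poorest members, and PSMD2, a scaffold of the regulatory particle, was the richest with 39.

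Methylation is given as methylated CpG reads over all CpG reads within 500 bp of the start, in percent, and a start counted as measured when both replicates had 20 or more CpG reads there. The tables held 28475863 autosomal CpG reads in replicate 1 and 51406146 in replicate 2, covering 31.6% and 59.0% of 27852739 CpGs. A start could be assigned to 17994 of the 19126 genes, and 13820 of those were measured. Among cell type markers, all 7 measured pluripotency genes of 8 had a peak at their start and 6 of them were unmethylated (DNMT3B was 46.8% at its first listed start), while the blood markers LCK and CD37 (86.4% and 50.9%) and the keratinocyte marker KRT5 (88.3%) had no peak. The neural genes PAX6 and SOX1 (0.843% and 1.06%) and the fibroblast genes VIM and COL1A2 (1.62% and 3.22%) were unmethylated with a peak, while the fibroblast gene COL1A1 was at 37.5% and 19.5% and also had a peak. POU5F1 had no read in either replicate.

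Proteasome genes were almost uniformly unmethylated at their starts. Of the 48 members, 43 were measured, and 42 of these were under 20% in both replicates, beside 91.4% of all measured starts. PSMA8 was the only measured member between 20% and 80%, and none was over 80%, beside 6% and 2.62% of all starts. Under 5% in both replicates were 38 of the 43, beside 81.3% of all starts, so at either limit the members' share lay near the genome-wide level. The 40 measured common genes had a median of 0.674% in replicate 1 and 1.5% in replicate 2 (mean of the medians 1.09% ± 0.582, SD, n = 2). The same medians over all measured starts were 0.691% and 1.67% (1.18% ± 0.695), which differs from the members by less than the spread between replicates.

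**Figure D1:**
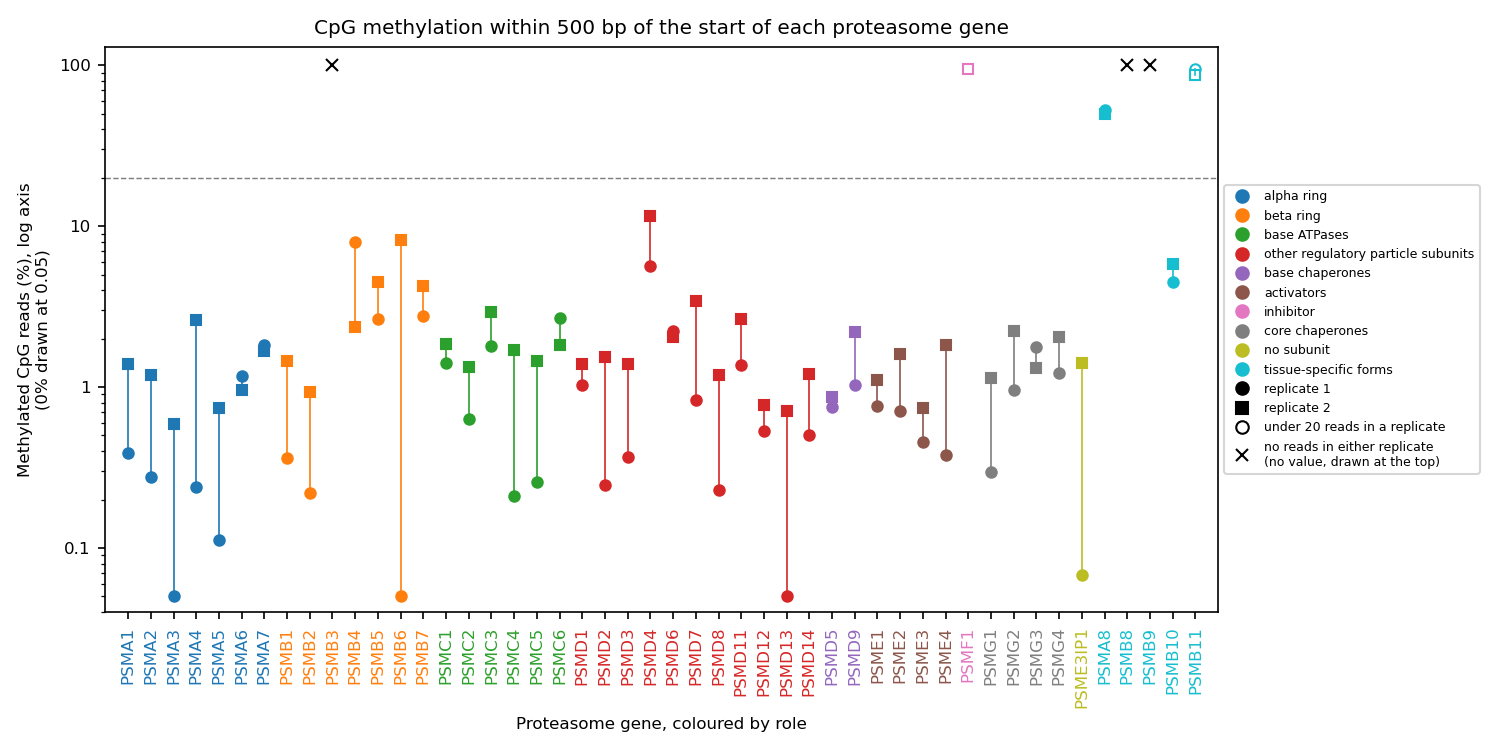
CpG methylation within 500 bp of the start of each of the 48 genes, in percent on a log axis, with a circle for replicate 1 and a square for replicate 2 joined by a line, and colours for roles. The 42 genes below the dashed line at 20% include PSMB10, while PSMA8 lies near 50% and the open symbols of PSMB11 near 90%; crosses mark the 3 genes without reads.

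Of the role groups with several genes, the alpha ring had the lowest median. Its 7 genes were all unmethylated, with medians of 0.277% and 1.19% in replicates 1 and 2. PSMA3 was lowest of all members, with no methylated read among 1252 in replicate 1, which allows up to 0.240%, and 0.593% of 1181 reads in replicate 2. PSMA7, the counterpart of the testis form, had the highest mean in the ring, with 1.81% of 441 and 1.67% of 1613 reads, although PSMA4 was higher in replicate 2 (2.60% of 538). All 7 genes stayed under 3% in both replicates, and the spread of the ring's median between replicates (SD 0.646) was nearly as large as its level of 0.734%.

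Within 500 bp of the start, the beta ring, which carries the active sites, had higher values than the alpha ring. Its medians were 1.51% and 3.32% over 6 measured genes. Among the active subunits, PSMB5 (chymotrypsin-like) had 2.67% of 300 and 4.5% of 422 reads. PSMB7 (trypsin-like) had 2.75% of 327 and 4.26% of 469 reads. PSMB6 (caspase-like) had no methylated read among 180 in replicate 1, which allows up to 1.67%, and 8.26% of 242 in replicate 2. The structural subunit PSMB4 went the other way, with 8.03% of 249 and 2.37% of 380 reads. PSMB2, a structural subunit, was lowest at 0.220% and 0.931%. The ring's median in this window was higher than that of the alpha ring in both replicates (means 2.42% ± 1.27 and 0.734% ± 0.646). The difference was 1.24 and 2.13 percentage points (1.68 ± 0.629). Genes are not replicates, and the difference was not tested. Within 250 bp of the start, the 6 beta ring genes had 0% to 0.667% in replicate 1 and 0.840% to 3.02% in replicate 2. The alpha ring genes had 0% to 1.75% and 0.571% to 1.62% there, so the ranges overlapped.

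The higher values of PSMB4, PSMB6 and PSMD4 came from CpGs at the rim of the window, more than 250 bp from the start, on few reads. PSMD4, a ubiquitin receptor of the regulatory particle, was the highest common gene at 5.65% of 301 and 11.6% of 644 reads (8.65% ± 4.24). Within 250 bp of its start it had 2.17% and 1.1%, and beyond that 45.8% of 24 reads and 69.7% of 99 reads. PSMB6 had 0 of 172 and 1.40% of 214 reads within 250 bp, and 17 of 28 reads methylated beyond it in replicate 2, where replicate 1 had only 8 reads. PSMB4 had 0.667% and 0.840% within 250 bp and 19.2% of 99 and 4.93% of 142 reads beyond. The 3 genes therefore did not stand apart close to their starts. PSMB5 and PSMB7 were also higher beyond 250 bp. PSMB5 had 0% of 163 and 1.70% of 235 reads within 250 bp, and 5.84% of 137 and 8.02% of 187 reads beyond. PSMB7 had 0.338% of 296 and 3.02% of 397 reads within 250 bp, and 25.8% of 31 and 11.1% of 72 reads beyond. PSMB2 had no methylated read beyond 250 bp, among 74 and 56. Summed over the 40 common genes, methylation was 0.876% ± 0.570 within 250 bp and 3.06% ± 1.14 from there to 500 bp, against 1.35% ± 0.720 and 3.0% ± 0.951 at all measured starts.

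The regulatory particle was unmethylated throughout. The 6 base ATPases, which unfold the substrate, had medians of 1.03% and 1.76%, from 0.855% ± 0.845 in PSMC5 to 2.37% ± 0.810 in PSMC3. The 11 other subunits had medians of 0.530% and 1.39%, and all but PSMD4 were under 5% in both replicates. PSMD14, the enzyme that removes ubiquitin chains, had 0.506% of 1185 and 1.20% of 750 reads. PSMD13, a lid subunit, had no methylated read among 548 in replicate 1, which allows up to 0.547%, and 0.705% in replicate 2. PSMD2 was at 0.246% and 1.54%. The base chaperones PSMD5 and PSMD9, which help the ATPase ring to form, were at 0.810% ± 0.0777 and 1.61% ± 0.826.

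Caps and assembly factors looked the same. The interferon-inducible activator pair PSME1 and PSME2 had 0.759% of 527 and 1.11% of 1527 reads, and 0.710% of 704 and 1.61% of 1118 reads. PSME3, the nuclear activator, had 0.454% and 0.739%, and PSME4, a large single-chain activator, 0.376% and 1.82%. The core chaperones PSMG1 to PSMG4 ranged from 0.715% ± 0.590 (PSMG1) to 1.64% ± 0.581 (PSMG4). The 4 activators and the 4 core chaperones all counted as unmethylated. PSME3IP1, the gene of a PSME3 partner, was at 0.0677% of 1478 and 1.40% of 2139 reads.

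PSMF1, the gene of the inhibitor PI31, showed how a value can depend on the start chosen. At its first listed start, position 1113263 on chromosome 20, replicate 1 had no read and replicate 2 had 95.5% of 22 reads, and the gene did not count as measured. At its other listed start, 5339 bp downstream, it had 0.897% of 669 and 2.17% of 1059 reads, with 72 CpGs instead of 16 and a peak of signal 1141. Of the 42 matched members, 9 had more than 1 listed start. For PSMB5, a start 320 bp downstream gave 0.314% of 318 and 1.03% of 487 reads in place of 2.67% and 4.5%. For PSMG2, a start 44304 bp downstream had 90 CpGs instead of 68. It gave 0.178% of 562 and 0.673% of 594 reads in place of 0.955% and 2.22%. Its peak, of signal 656, had a summit 32 bp upstream, while the summit at the first listed start lay 553 bp upstream (signal 373). Taking the start with the most CpGs for every gene left 43 of 44 measured members unmethylated instead of 42 of 43. The share of all measured starts was then 92.0%, against 91.4% before.

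The tissue-specific forms differed from each other. PSMA8, which replaces PSMA7 in the testis, was partly methylated: 53.1% of 98 reads in replicate 1 (Wilson 95% interval 43.3% to 62.6%) and 50% of 150 reads in replicate 2 (42.1% to 57.9%), or 51.5% ± 2.16. PSMA7 had 1.74% ± 0.0991. PSMA8 exceeded it by 51.2 and 48.3 percentage points in the 2 replicates (49.8 ± 2.07), a gap far wider than the spread between replicates. With 2 replicates an exact sign-flip permutation test cannot go below p = 0.5, so no test is given for these differences. Single CpGs of PSMA8 were mixed too: of the 7 from 64 to 30 bases before the start, each had 1 to 3 methylated of 5 reads in replicate 1 and 2 to 4 of 6 or 7 reads in replicate 2. Away from the start, from 1000 to 500 bp upstream, PSMA8 had 7 of 7 and 10 of 13 reads methylated.

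PSMB11, the thymus form, appeared methylated on few reads. It had 94.4% of 18 reads in replicate 1 (74.2% to 99.0%) and 87.5% of 16 reads in replicate 2 (64.0% to 96.5%), below the minimum of 20, so the decision to print this value was made after the data were seen; it passes the alternative minimum of 10. PSMB5, which it replaces and whose start lies upstream on the same chromosome and the opposite strand, had 3.58% ± 1.30. The difference was 91.8 and 83.0 percentage points (87.4 ± 6.21). The peak nearest to PSMB11, 6917 bp upstream, is the peak of PSMB5 at chr14:23034822-23035398. Within the printed stretch of PSMB11 replicate 1 had 6 of 6 reads methylated and replicate 2 had no read.

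PSMB10, the interferon-induced form that replaces PSMB7, counted as unmethylated, with 4.49% of 89 reads (1.76% to 11.0%) and 5.81% of 155 reads (3.08% to 10.7%). PSMB7 had intervals of 1.46% to 5.15% and 2.78% to 6.5%. The difference of 1.74 and 1.54 percentage points (1.64 ± 0.141) lay within these counting intervals, so no difference was detectable in this window at this depth. The value followed the window: it was -7.13 points with CpGs within 1000 bp and 13.6 ± 6.04 points with CpGs within 250 bp. In those 250 bp PSMB10 had 18.2% of 22 and 12.3% of 73 reads methylated, above PSMB7 in both replicates (0.338% of 296 and 3.02% of 397). The average hid a sharp step at the PSMB10 start. In the 500 bp before the start 3 of 6 and 8 of 17 reads were methylated, and in the 500 bp after it 1.27% of 79 and 0.752% of 133 reads. From 1000 to 500 bp upstream both reads of replicate 1 and all 22 of replicate 2 were methylated, and from 500 to 1000 bp downstream 0.269% of 372 and 1.34% of 894 were. The methylated side thus rested on few reads and the unmethylated side, inside the gene, on many.

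**Figure D2:**
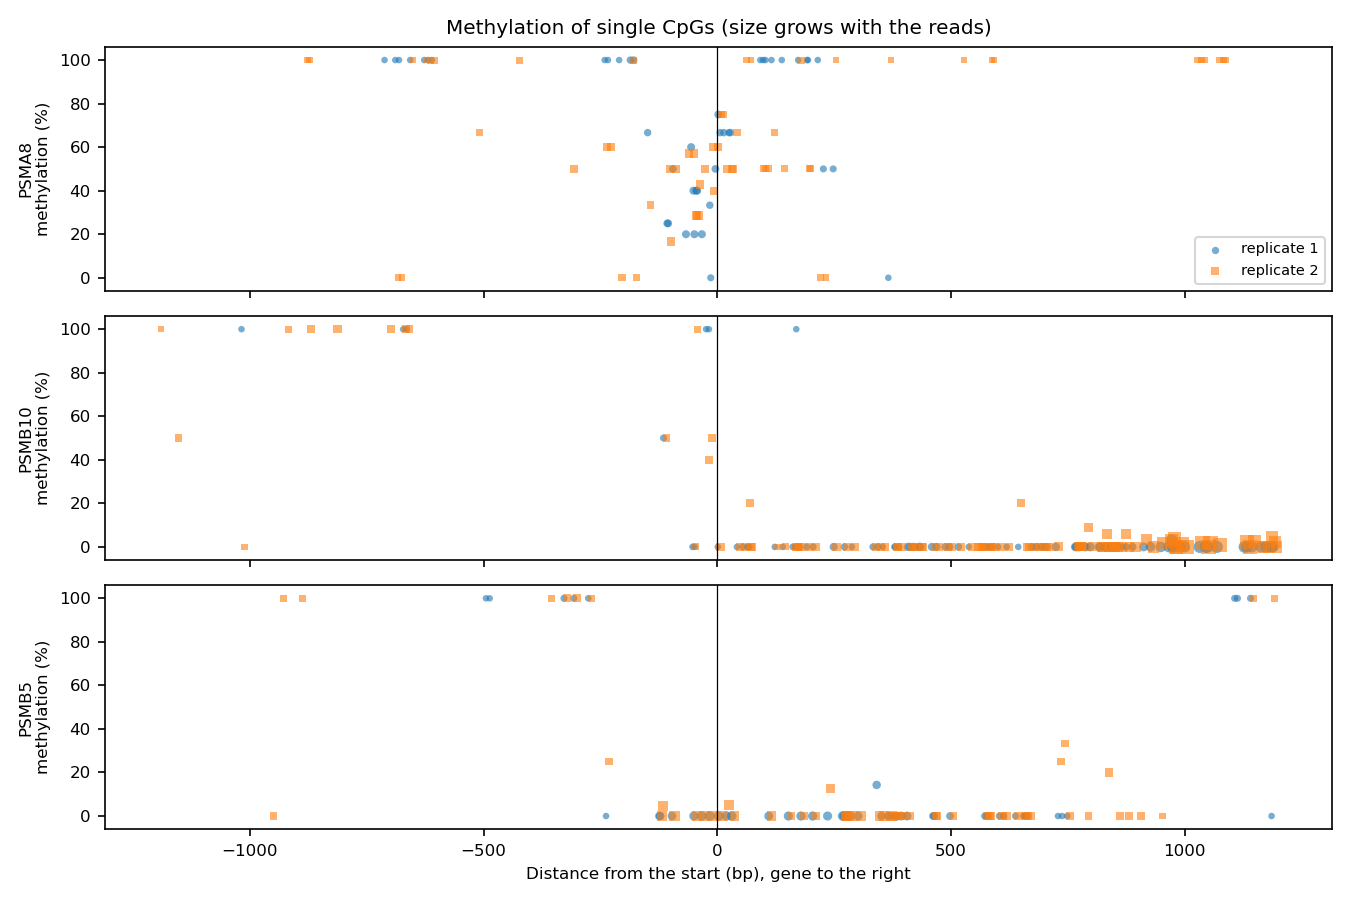
Methylation of single CpGs against their distance from the start for PSMA8, PSMB10 and PSMB5, in percent, with circles for replicate 1, squares for replicate 2 and a size that grows with the reads. PSMA8 is mixed around the start, PSMB10 is high upstream and near 0 downstream, and PSMB5 is near 0 from the start into the gene and high from about 250 bp upstream.

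PSMB8 and PSMB9, the other interferon-induced forms, could not be measured. Both had 0 CpG reads in both replicates within 500 bp, over 47 and 66 CpGs, and no peak. They lie in a stretch of chr6:32709173-32997609 in which none of 3118 listed CpGs had a read in either replicate, and which holds 10 protein-coding genes whole. TAP1 and TAP2, which encode the peptide transporter of antigen presentation, lie in it too. Their partner TAPBP, elsewhere on the chromosome, also had no reads. PSMB3, a structural subunit of the beta ring, lies in a like stretch at chr17:38632079-38841525, with 4697 CpGs and 8 genes. No read was found at 4.77% of all starts, or 2.85% of those with at least 40 CpGs. The CpG tables also list 7 alternate contigs of the MHC region, with 373776 CpGs and 2687 and 5253 reads; whether reads of these genes were placed there was not tested. These genes are therefore unmeasured, and their accessibility and methylation in H9 cells are not known from these data.

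Open chromatin was called at most members. A peak of the authors' list had its summit within 1000 bp of the start of 41 of 48 members, beside 63.5% of all starts, and of 40 of 43 measured members, beside 82.1% of measured starts. The 7 without a peak were all 5 tissue-specific forms, PSMB3 and PSMB4. Of these, PSMB3, PSMB8 and PSMB9 had no reads at all, so the missing peak says nothing on them. PSMB4 was the only measured common gene without a peak: the nearest summit was 52205 bp away. Its start had 3.56 and 5.43 reads per CpG, against medians of 8.44 and 13.3 for the common genes. PSMC1, which had a peak, had fewer in both replicates (2.71 and 5.15). PSMA8 had 2.33 and 3.57 reads per CpG, with the nearest summit 30116 bp away. PSMB10 had 2.41 and 4.19 reads per CpG at its start, and its nearest summit lay 1085 bp downstream, just past the limit, in a peak at chr16:67935405-67936173 inside the gene with a signal of 2602.

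**Figure D3:**
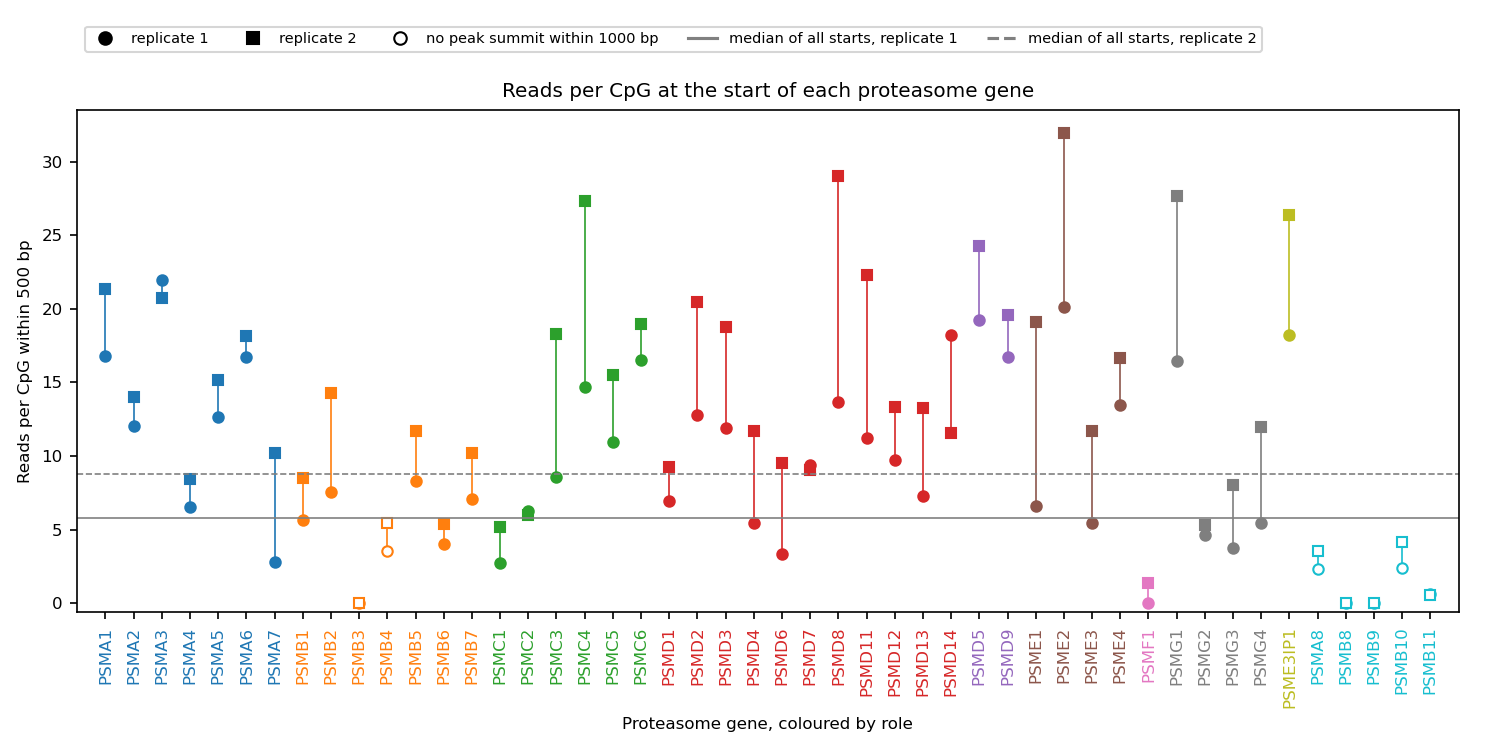
CpG reads per CpG within 500 bp of each start, with circles for replicate 1, squares for replicate 2 and open symbols for genes without a peak summit within 1000 bp. The grey lines mark the medians of all starts, 5.78 and 8.78; the open symbols of the tissue-specific forms, PSMB3 and PSMB4 lie below them, from 0 to 5.43.

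Where a peak was present, it sat just upstream of the start. The median summit was 84 bp upstream, against 74 bp for all starts with a peak. Summits were upstream at 35 of 41 members (85.4%, against 78.0%) and within 200 bp at 34 (82.9%, against 72.8%). The authors' peak signal, which is the peak caller's own value and is used here only to describe peaks, had a median of 1207 at members and 1276 at all starts, and the peak width 486 and 538 bp. PSME2, the activator that shares its region with RNF31, had the highest signal (4031) and the widest peak (1173 bp), followed in signal by PSMG1 (2917) and PSMD8 (2558). PSMB1 and PSMD13 had 2 peaks each: the stronger lay 969 and 436 bp upstream (signal 1772 and 634), and the nearer 13 and 46 bp upstream (548 and 482). At the low end were PSMF1 (202), whose summit lay 969 bp from its first listed start, PSMB6 (287) and PSMC2 (344). By role, the median signal was 2216 for the 2 base chaperones, 1666 for the alpha ring, 1450 for the activators, 1222 for the ATPases, 987 for the other regulatory particle subunits, 764 for the beta ring and 653 for the core chaperones.

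**Figure D4:**
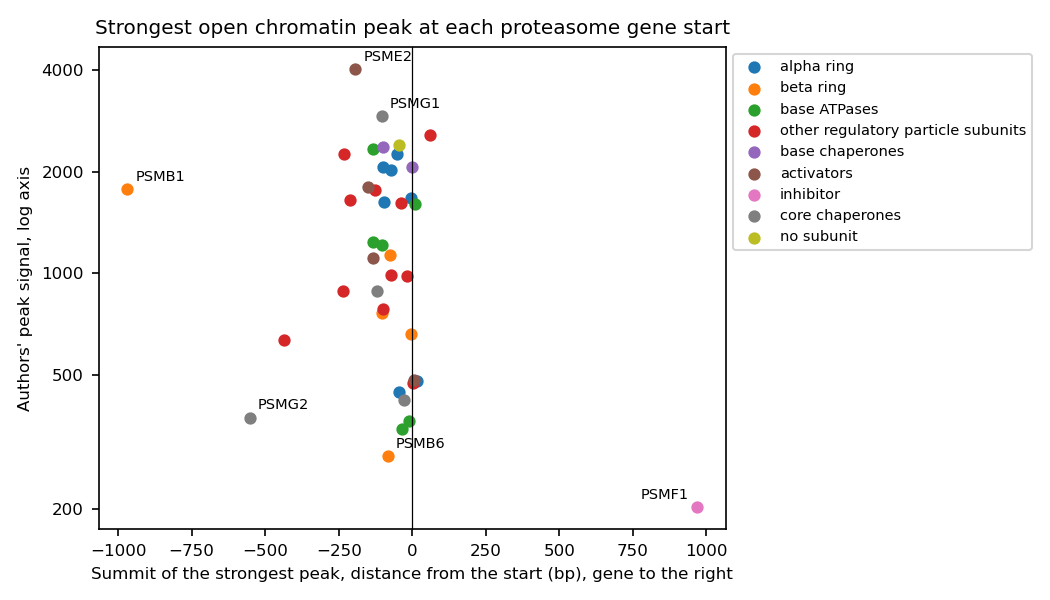
Signal of the strongest peak at each of the 41 genes with a peak, on a log axis, against the distance of its summit from the start in bp. Of the 41 summits, 34 lie within 200 bp of the start, and of the other 7 those of PSMB1, PSMF1, PSMG2 and PSMD13 lie farthest from it; PSME2 is highest and PSMF1 lowest.

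Around the start the common genes showed a trough of low methylation. Summed over the 40 measured common genes, methylation was 1.01% and 2.02% in the 500 bp before the start and 0.410% and 1.30% in the 500 bp after it. It was 9.29% and 14.1% from 1000 to 500 bp upstream, and 15.9% in both replicates from 500 to 1000 bp downstream. From 1000 to 2000 bp it reached 25.3% and 37.5% upstream and 73.6% and 83.6% downstream. Downstream the rise was earlier than at all measured starts, where the same zones had 4.68% and 7.45%, then 14.7% and 23.7%. The reads were few there, at 292 and 891 for all common genes together, so gene by gene only 11 common genes had 10 reads in each replicate: none was under 20% in both, beside 36.6% of all starts, and 6 were over 80%, beside 20.4%. From 500 to 1000 bp downstream 14 of 22 such genes were under 20%, beside 73.7%, and 1 was over 80%, beside 3.1%. Upstream from 1000 to 500 bp, 12 of 23 were under 20%, beside 54.7%, and 1 was over 80%, beside 9.41%. From 2000 to 1000 bp upstream, 3 of 14 were under 20%, beside 24.3%, and 4 were over 80%, beside 31.0%. All starts summed to 20.4% and 31.3% there. A large part of the 1056 and 2358 common gene reads in that zone came from PSMB1 (0.817% of 367 and 2.57% of 623), PSME2 (5.15% of 194 and 5.29% of 170) and PSMG2 (0% of 133 and 2.91% of 378). The summed upstream value thus leaned on these genes. These differences between the genes and all starts were not tested, since genes are not replicates.

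**Figure D5:**
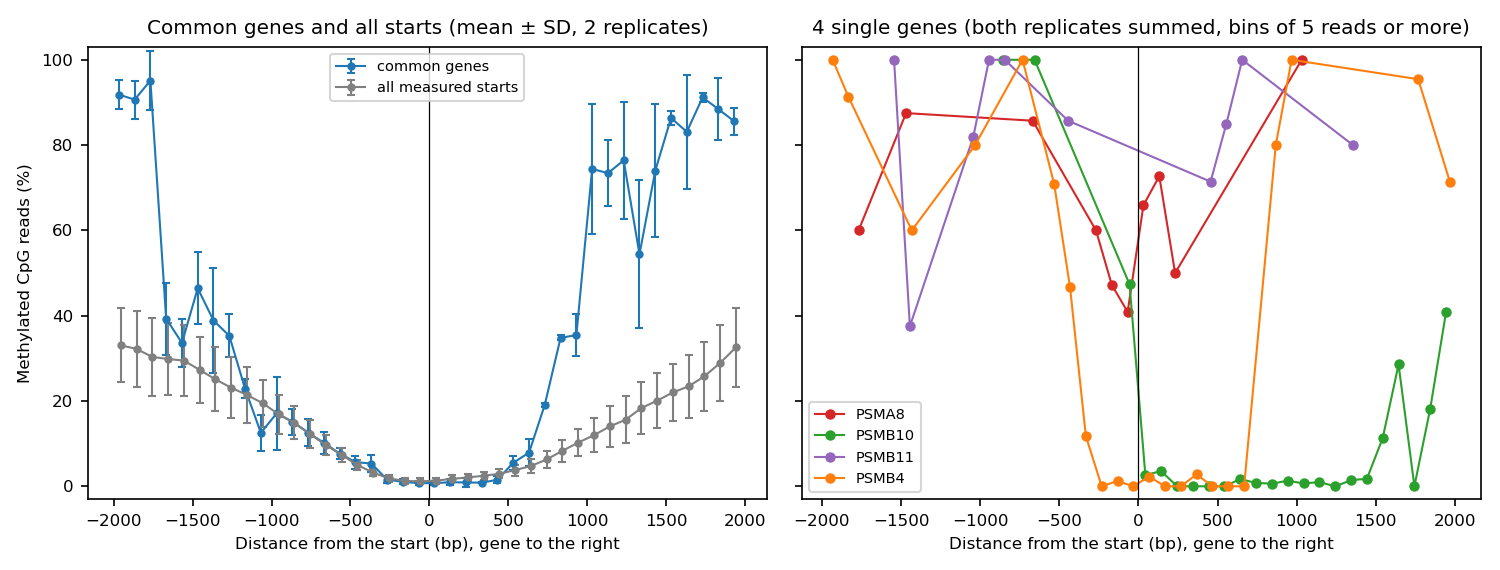
Methylation in 100 bp bins by distance from the start, in percent, for the 40 measured common genes and all measured starts (mean and SD of 2 replicates, left) and for PSMA8, PSMB10, PSMB11 and PSMB4 (reads of both replicates summed, bins of at least 5 reads, right). The common genes lie near 1% around the start. They lie above all starts from 500 bp downstream and beyond 1200 bp upstream. PSMB10 is low only downstream, PSMB4 on both sides, PSMA8 is mixed and PSMB11 high at the bins with reads.

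The replicates differed by a small shift. Fisher's exact test on the methylated and unmethylated reads, two-sided with Benjamini-Hochberg adjustment over 13820 starts, called 14 of 43 measured members at 0.05, beside 29.5% of all starts. Replicate 2 was higher at 13 of the 14, against 95.8% of all called starts, so that 30.2% of the measured members were called in that direction, beside 28.2% of all starts. Without regard to the test, it was higher at 36 of the 43, beside 84.5%. The members thus shifted in the direction of most other starts. CpGs of the same fragment are not independent, so these p-values are too small. The largest differences were those of PSMB6 (0% and 8.26%, adjusted p = 0.000432 by Fisher's exact test), PSMD4 (adjusted p = 0.0166 by Fisher's exact test) and PSMB4 (adjusted p = 0.00954 by Fisher's exact test), the only called member higher in replicate 1. Within 250 bp of the start these 3 were no longer called (adjusted p = 0.427, 0.402 and 1 by Fisher's exact test). There 5 members were called, beside 19.5% of all starts: PSMC4, PSMD2, PSME4 and PSME3IP1 as before, and PSMB7.

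Several members share their start region with a neighbour on the opposite strand, so that any reads and peak there belong to both genes. Another protein-coding start lay within 1000 bp at 9 of 48 members (18.8%), beside 15.4% of all starts, and all 9 were on the opposite strand, or 18.8% of members beside 13.8% of all starts. Of all starts with such a neighbour, 89.5% had it on the opposite strand. PSMD13 and SIRT3 start 45 bp apart, PSME3IP1 and RSPRY1 36 bp, PSME4 and ACYP2 120 bp, PSMD9 and HPD 179 bp, PSMA2 and MRPL32 202 bp, PSMC5 and FTSJ3 232 bp, PSME2 and RNF31 265 bp, PSMA7 and SS18L1 375 bp and PSMB9 and TAP1 488 bp. The pair of PSMB9 and TAP1 joins an immune subunit to the transporter of the peptides, and the printed stretch of PSMB9 lies between the 2 starts.

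Short motifs were searched on both strands of the 300 base promoter window of the 42 matched members, and a match is a description, not a site. TGACNNNGC, the core of the antioxidant response element bound by NFE2L1 and NFE2L2, which activate proteasome genes, was found in 13 (31.0%), against 14.2% of all 15101 promoters. The antioxidant core was in the windows of PSMB3, PSMB9, PSMC4, PSMD1, PSMD3, PSMD5, PSMD9, PSMD12, PSME1, PSME2, PSME4, PSMG1 and PSMG2. The ETS motif CCGGAA was in 18 members (42.9%, against 23.1%). The YY1 motif AAGATGG was in 8 members (19.0%, against 6.31%), among them PSMB4, PSMB5 and PSMD8. The NF-Y motif CCAAT was in 19 members (45.2%, against 36.0%), and the SP motif GGGCGG was in 29 members (69.0%, against 58.9%). The motif of nuclear respiratory factor 1, GCGCA and GCGC separated by 1 base, was in 5 members (11.9%, against 8.64%). The TATA box, TATAAA, was also in 5 members (11.9%, against 9.71%). The interferon-gamma activated sequence TTCNNNGAA was in 5 members too (11.9%, against 7.10%). The NF-kB motif GGGANTTCC was in 2 members (4.76%, against 2.20%), and the CRE motif TGACGTCA was in none (against 2.65%). The share of members exceeded that of all promoters for each motif except the CRE, without a test.

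The core of the interferon-stimulated response element, GAAA and GAAA separated by 2 bases, was in 6 windows (14.3%, against 3.17%): PSMA4, PSMB4, PSMB10, PSME1, PSME2 and PSMG4. In PSMB10, PSME2 and the assembly chaperone gene PSMG4 the match was the same 10 letters, GAAAGCGAAA, at 21 to 12, 28 to 19 and 33 to 24 bases before the start, and in PSME1 it was those letters on the reverse strand at 5 to 14 bases after the start. The PSMB10 match can be read near the 3′ end of its printed stretch and holds a CpG, which had 1 of 1 read methylated in replicate 1 and 3 of 6 in replicate 2. The windows around it in PSME1, PSME2 and PSMG4 were unmethylated with a peak, as given above. In PSMB4 the letters were GAAAAAGAAA, with no CpG, at 68 to 59 bases before the start. The windows of PSMB8 and PSMB9 held no match of this motif.

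Other measured genes of the ubiquitin-proteasome system resembled the common subunits. Of 31 listed genes, 30 were autosomal, 29 had a start and 27 were measured. All 27 were unmethylated and had a peak, beside 91.4% and 82.1% of measured starts, with a median of 0.881% ± 0.684. Among the highest were SEM1, a small lid subunit (3.01% ± 1.71), and NGLY1, the deglycosylase that processes NFE2L1 (1.80% ± 0.0326). The lowest were ZFAND5, a proteasome activator (0.362% ± 0.512), AKIRIN2, an adaptor for the nuclear import of proteasomes (0.533% ± 0.754), and RPS27A, a ubiquitin fusion gene (0.672% ± 0.393). DDI1, the testis relative of the protease DDI2, fell short of the read minimum with 4 of 4 and 84.0% of 81 reads methylated and had no peak. NPLOC4, a cofactor of VCP, also fell short of the minimum at its first listed start and had no peak. There 100% of 5 and 87.5% of 32 reads were methylated.

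Among 11 partners and regulators of the immune forms, 6 were measured and all 6 were unmethylated, beside 91.4% of all measured starts. They included the peptidase ERAP1 (0.761% ± 0.697), the transcription factor IRF1 (0.858% ± 0.556) and NLRC5, the activator of MHC class I genes (6.04% ± 1.63). The interferon receptor chains IFNGR1 (0.928% ± 0.0624) and IFNGR2 (0.983% ± 1.39) were also among them. Of the 6, all but IFNGR2 had a peak, beside 82.1% of measured starts. TAP1, TAP2 and TAPBP had no reads, and B2M had 4 reads in replicate 1 (0% methylated) and none in replicate 2. The peptidase ERAP2 had 4 reads in each, with 100% and 75% methylated, and no peak. Of the immune forms themselves, only PSMB10 could be set beside these genes.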

How the data were processed

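ATAC-Me libraries of 2 replicates of H9 cells were used. For each CpG the authors deposited a methylation fraction and a count of covering reads. Their 1 peak list gives a score capped at 1000, a signal, a −log10 q-value and a summit, as deposited by the authors. Trim Galore, Genrich and the build hg38 (GRCh38) are named per the submitters' processing notes; for the mapper, methylation caller, versions, duplicate removal and use of replicates in peak calling, the answer is not given in the sources used here. Failed conversion would appear as methylation, mostly at low values.

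Methylated reads are the fraction times the count, rounded; nearly all products were whole within 0.001. Reads are summed over CpGs, so a fragment counts at each CpG it covers; Wilson intervals and limits from 0 methylated reads (3 counts of the total) cover counting error only and are too narrow. The first listed RefSeq start was used (15101 genes), otherwise the gene end with at least 2 times the CpGs of the other (2893 genes, including PSMA7, PSMB1, PSMB6, PSMB7, PSMD4 and PSMG3), a choice that picked the right side in 95.0% of 11755 genes with a listed start; 1132 genes had neither. Positions count from 1. Classes were under 20%, over 80% and between, and a peak needed its summit within 1000 bp. Fisher's exact test (scipy 1.17.1) compared replicates and was tested on simulated data. The simulated reads were independent, unlike the CpG reads of a fragment, so the simulation cannot show that the p-values hold for these data. With 1 group, all other values are descriptions with the SD of 2 replicates. Alternatives varied the window, read minimum, weighting, start, peak rule, altered CpGs and replicates. The members and lists were chosen with earlier results of these data known; any member could be named, and of the other lists the 3 lowest and highest, those over 20% or without a peak, and the partners of the immune forms. Some genes that this rule takes are left out of the text. Chromosome X was outside the rule.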

Additional observations from a re-analysis of the deposited data

Results flagged for a closer look

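PSMD10, the gene of the base chaperone gankyrin, lies on chromosome X and so outside the rule for members, and no comparison above used it. Its start had 2433 CpG reads in replicate 1 and 1737 in replicate 2, of which 0.411% (0.223% to 0.755%, Wilson) and 1.38% (0.930% to 2.05%) were methylated, a mean of 0.896% ± 0.686 (SD, n = 2). That is 36.3 and 25.9 reads per CpG, against medians of 8.44 and 13.3 at the common autosomal genes. The peak list holds 0 peaks on chromosome X, so the absence of a peak there cannot be read. It was singled out because reads were present in data outside the comparisons, at a depth above that of most members.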

How the results depend on the processing

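Of 96 values recomputed under other settings, 82 kept their direction and stayed within the replicate spread or 1.5 times the count. Another 13 moved and 1 reversed. The 82 include values that could not have moved, so their number does not measure robustness. Leaving out a replicate always shifts a mean by less than the SD of both. The other read minimums left the reads of PSMA8 and PSMB10 unchanged. With CpGs within 250 bp, PSMB10 was at 15.3% and its difference from PSMB7 was 13.6 points. PSMB11 was at 100%, on only 14 reads in replicate 1 and 3 in replicate 2, and its difference from PSMB5 was 99.1 points. In that window 5 members differed between replicates (14 before). With CpGs within 1000 bp, the median of the common genes was 2.34%, PSMA8 was at 54.6% and 53.0 points above PSMA7, PSMB10 was at 2.78%, and its difference from PSMB7 reversed to -7.13 points; the step at the PSMB10 start makes its value follow the window. With CpGs of at least 5 reads weighted equally, PSMA8 was at 39.98% and 38.1 points above PSMA7, PSMB10 was at 3.67% and 0.698 points above PSMB7, and PSMB11 had no value, nor had it with at least 50 reads. Leaving out each replicate gave 0.674% to 1.54% for the median of the common genes, 50% to 53.1% for PSMA8, 4.49% to 5.81% for PSMB10, 87.5% to 94.4% for PSMB11, 48.3 to 51.2, 1.54 to 1.74 and 83.0 to 91.8 points for the differences of PSMA8, PSMB10 and PSMB11, and 42 unmethylated members each time. Members with a peak numbered 39 to 42 under other distances and starts, and 31 when only peaks above the median significance counted. The share of all starts was not computed under these settings, so these counts cannot be set beside it. The 42 with any overlap include PSMB10. Alternative starts and CpGs marked as altered in the tables were added after the data were seen. Depth left PSMB11 and PSMF1 below the read minimum and PSMB3, PSMB8 and PSMB9 without reads, and PSMB10 and PSMA8 rested on few reads. Printing PSMB11 below the minimum was also decided after the data were seen.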
